A study of Caenorhabditis elegans with 27 samples.

Results

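Auxin was given for 30 min to larvae of the Caenorhabditis elegans control strain CA1200, and their transcripts were set against those of CA1200 larvae at 0 min. The comparison was chosen by strain, stage and time in the sample labels and holds 4 of the 27 libraries of the series. Replicates 1 and 2 at 30 min form 2 pairs with replicates 1 and 2 at 0 min. The series design calls them biological replicates.

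The series asked what follows the loss of topoisomerases I and II, enzymes that relax and untangle DNA, by auxin-inducible degradation. The worms of the comparisons below came from starved first-stage larvae grown to larval stage L2/L3, and those given auxin went onto plates with 1 mM indole-3-acetic acid. CA1200 at 30 min and CA1200 at 0 min therefore share the strain, the stage and the TIR1 protein, and differ in the auxin plate and in the time on it. The labels do not say when the 0 min aliquots were collected, so auxin and the handling around it cannot be told apart. The other strains used below are AM05 (top-1::degron::GFP) and SS01A (top-2::degron::GFP), both with 2 L2/L3 libraries at 30 min and 2 at 0 min, here called the TOP-1 and TOP-2 strains. CA1200 is 1 strain, made for degron work, in which a transgene with a promoter active in most somatic tissues drives TIR1 and no protein carries a degron.

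TIR1 is a plant receptor that, once it binds auxin, joins a ubiquitin ligase and sends degron-tagged proteins to the proteasome. CA1200 serves as the strain in which auxin meets TIR1 without a tagged protein. Worms clear foreign small molecules in steps: cytochrome P450 enzymes oxidise them, UDP-glucuronosyltransferases and glutathione transferases attach a sugar or a peptide, and transporters export the product. Many of these genes are expressed in the intestine, and several nuclear hormone receptors, a family much expanded in this species, control them.

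The 4 libraries held an estimated 21.63 and 26 M (mega) fragments at 30 min, against 21.13 and 21.63 M at 0 min. Ribosomal protein genes took 36.95% and 33.7% of the total abundance in TPM (a share of transcripts corrected for gene length) at 30 min, against 35.6% and 38.5% at 0 min. Among the other libraries, 6 stood apart, namely replicate 1 of the TOP-2 strain and the L2/L3 libraries of the DPY-27 degron strain AM01. They had 6.998 to 11.48 M fragments and a median TPM of 5.10 to 6.83, against 14.13 to 26 M and 1.27 to 2.53 in the remaining 21. A further 2 of the 27 libraries, of AM01, came from mixed larvae and are in the fit too. The 6 enter the estimate of spread, so calls are given with all 27 libraries and with the 21. The RNA came from whole worms, and markers of muscle, neurons, intestine and hypodermis were detected in each of the 4 libraries. From here on, TPM values of genes and marker sums are scaled TPM, that is TPM divided by a factor per library. The factors were 0.6507 and 1.105 at 30 min, against 0.8648 and 0.8837 at 0 min, so the order of libraries can differ in unscaled TPM. The filter that decided which genes were tested used unscaled TPM. The 6 sperm markers summed to 0 and 0.259 TPM at 30 min, against 0 and 0.0770 at 0 min, and the 6 adult markers to 0.579 and 0.393, against 0.769 and 0.752. Sperm and adult transcripts were thus at or near 0 in L2/L3 worms.

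After 30 min of auxin, ugt-8, ugt-9, ugt-41 and cyp-35C1, genes for detoxifying enzymes, and the nuclear hormone receptor gene nhr-62 were among the genes that rose in CA1200. The genes that fell included rhy-1, the transporter genes nac-3 and hmit-1.2 and the receptor genes nhr-85 and nhr-114. Of 14271 genes tested, 31 passed the test (0.217%), 13 of them higher (0.0911%) and 18 lower (0.126%) at 30 min. The test was limma on log2(scaled TPM + 1) with the replicate pair as a block, and a gene passed at a Benjamini-Hochberg adjusted p under 0.05 over all genes tested. Changes below are on that log2 scale, 30 min minus 0 min, with their standard error (SE), and they understate the ratio of genes with low TPM. In all 31 genes both 30 min libraries lay outside the range of both 0 min libraries. The genes were picked by a test on these same libraries, so this adds no support. The share of all genes tested that did so was not counted. An unadjusted p under 0.05 was reached by 1960 genes (13.7%). Without the block 0 genes passed (0.0%), with 424 at an unadjusted p under 0.05, the smallest adjusted p among the 31 being 0.119. Without 30 min replicate 1, 1 gene passed and it was not among the 31, and without 30 min replicate 2, 3 genes passed, 2 of them among the 31. Without 0 min replicate 1, 0 genes passed, and without 0 min replicate 2, 14 passed, 3 of them among the 31. With the 21 libraries 160 genes passed (1.12%), 83 higher (0.582%) and 77 lower (0.54%), and these held 29 of the 31.

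**Figure D1:**
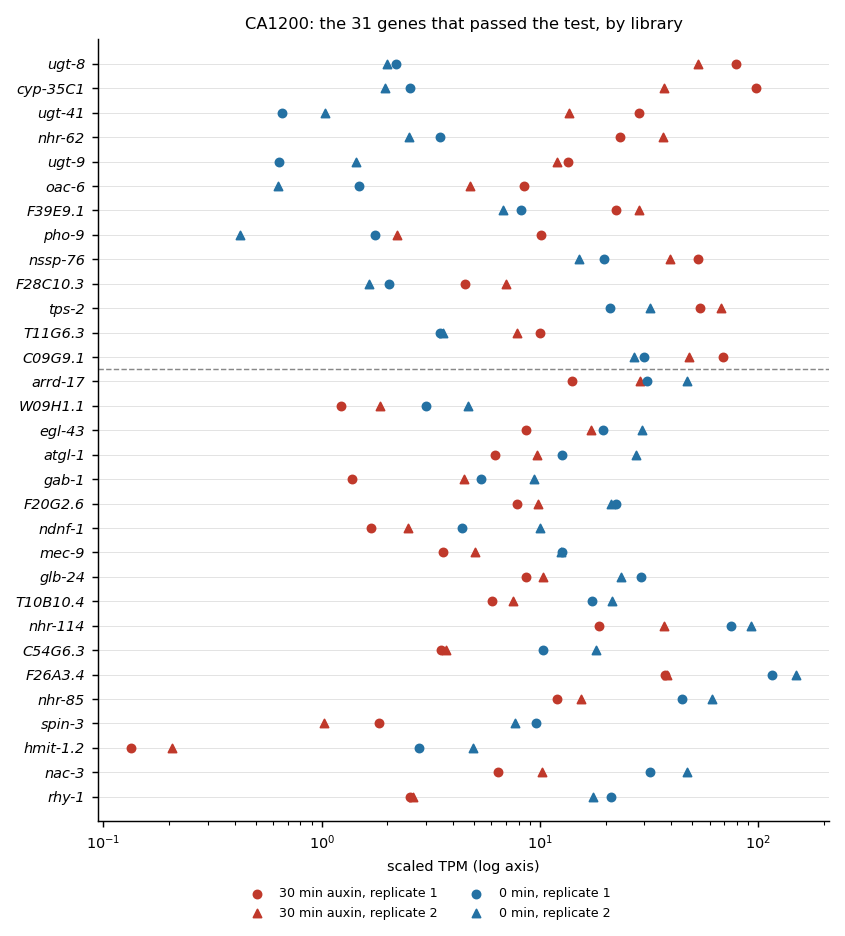
Scaled TPM (log axis) of the 31 genes that passed the test, in each CA1200 library. Red points are 30 min and blue points 0 min, circles replicate 1 and triangles replicate 2, and in each row red and blue do not overlap: the 13 genes above the dashed line were higher at 30 min and the 18 below it lower.

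Among the 31 genes the largest rises were in conjugating and oxidising enzymes. The UDP-glucuronosyltransferase gene ugt-8 (H23N18.3, chromosome V, 4903959 to 4905903) stood at 78.9 and 53.3 TPM at 30 min, against 2.19 and 2.00 at 0 min. Both 30 min libraries lay far above both 0 min libraries, and the ratio of the means was 31.6. The change was 4.41 ± 0.72 (SE), with a limma adjusted p of 0.0392. The cytochrome P450 gene cyp-35C1 (C06B3.3, V, 13896642 to 13898474), of a family often used to follow exposure to foreign compounds, stood at 97.6 and 37.03 TPM at 30 min, against 2.54 and 1.96 at 0 min. Replicate 1 was the higher of the 30 min libraries, and neither came near the 0 min level. The change was 4.24 ± 0.76, with an adjusted p of 0.0486.

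ugt-41 and ugt-9 were the other UDP-glucuronosyltransferase genes that passed. ugt-41 (F10D2.11, V, 7161048 to 7163576) stood at 28.5 and 13.6 TPM at 30 min, against 0.658 and 1.03 at 0 min. ugt-9 (T19H12.1, V, 4896033 to 4897948), which lies 6010 bases from ugt-8, stood at 13.5 and 11.98 TPM at 30 min, against 0.639 and 1.43 at 0 min. Both genes were near 1 TPM or lower without auxin and above 10 TPM in each 30 min library. Their changes were 3.5 ± 0.53 and 2.78 ± 0.46, with adjusted p of 0.0316 and 0.0392.

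Of 63 UDP-glucuronosyltransferase genes tested, of 67 in the files, 3 were higher and 0 lower, beside 0.0911% and 0.126% of all genes tested. The family's median change was 0.07, and 38 of the 63 were positive, beside a median of -0.01 over all genes tested. A filter over all 27 libraries, TPM of at least 1 in at least 2 of them, decided which members were tested. Members near 0 without auxin could thus enter through auxin libraries. The gene groups were also chosen with earlier results of these data known, so shares of members here and below are a description. A change of at least 2-fold up in both pairs was seen in 8 of the 63, beside 0.701% of all genes tested, and down in 0, beside 0.469%. With the 21 libraries 8 were higher, beside 0.582% of all genes tested. They add ugt-13, ugt-33, ugt-14, ugt-51 and ugt-64, which are named because of their values in that fit. ugt-13 stood at 54.9 and 84.7 TPM at 30 min, against 1.504 and 11.4 at 0 min (adjusted p = 0.0652 with all 27 libraries and 0.0209 with 21).

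Of 62 cytochrome P450 genes tested, of 75 in the files, cyp-35C1 was higher and 0 were lower, beside 0.0911% and 0.126% of all genes tested. The median change was 0.19, and 6 (9.68%) were at least 2-fold up in both pairs, beside 0.701% of all genes tested. With the 21 libraries 3 were higher, beside 0.582% of all genes tested. They add cyp-34A9 and cyp-35A2, and both are named because of their values in that fit. cyp-34A9 stood at 37.5 and 30.96 TPM at 30 min, against 3.48 and 4.23 at 0 min (adjusted p = 0.157 with all 27 libraries and 0.0182 with 21). cyp-35A2 stood at 25.9 and 11.7 TPM at 30 min, against 4.48 and 2.97 at 0 min (adjusted p = 0.206 and 0.0194). Of 45 glutathione transferase genes 0 passed with all 27 libraries. With 21, gst-21 was higher, beside 0.582% of all genes tested, and it is named because of its values in that fit. gst-21 stood at 37.01 and 39.4 TPM at 30 min, against 1.74 and 2.83 at 0 min, a change of 3.598 with an adjusted p of 0.0568 with all 27 libraries and 0.0123 with 21. These 3 families thus had a few members with large differences among many whose difference was small. The 29 ABC transporter genes of the pgp, mrp and haf families, pumps that can export conjugated compounds, had 0 that passed in either fit and a median of -0.17. Among 45 alcohol, aldehyde and short-chain dehydrogenase genes 0 passed in either fit. The dehydrogenase gene dhs-23, named for its value, stood at 36.6 and 12.5 TPM at 30 min, against 0.776 and 1.42 at 0 min (adjusted p = 0.124 with all 27 libraries and 0.059 with 21).

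Fewer cells of a type and less RNA per cell cannot be told apart in whole-worm RNA. The 6 intestine markers (elt-2, ges-1, ifb-2, act-5, asp-1 and vha-6) summed to 14073 and 3193 TPM at 30 min, against 5842 and 5213 at 0 min. The sum was thus higher in the 30 min library of pair 1 and lower in that of pair 2. Most of each sum was asp-1, at 12210 and 2533 TPM at 30 min, against 4657 and 4069 at 0 min. ugt-8, cyp-35C1, ugt-41 and ugt-9 were higher in both pairs. The transcript of elt-2, the intestinal GATA factor, stood at 5.77 and 2.67 TPM at 30 min, against 10.8 and 9.39 at 0 min. The part of tissue composition in these results was not tested.

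The nuclear hormone receptors moved in both directions. nhr-62 (Y67A6A.2, I, 9839588 to 9844801), a receptor known for its role in the lifespan response to dietary restriction, stood at 23.3 and 36.5 TPM at 30 min, against 3.47 and 2.52 at 0 min. It rose by 2.93 ± 0.47 (adjusted p = 0.0392). nhr-85 (W05B5.3, I, 13056079 to 13062111), a relative of mammalian Rev-erb that acts in larval timing, stood at 12.03 and 15.4 TPM at 30 min, against 44.7 and 61.5 at 0 min. It changed by -1.87 ± 0.24 (adjusted p = 0.0127). nhr-114 (Y45G5AM.1, V, 4187170 to 4189992), which acts in the methionine cycle when vitamin B12 is short, stood at 18.6 and 36.9 TPM at 30 min, against 75.3 and 93.2 at 0 min. It changed by -1.64 ± 0.20 (adjusted p = 0.0127). The 30 min and 0 min libraries of these receptors did not overlap.

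Of 203 nuclear hormone receptor genes tested, of 278 in the files, 1 was higher and 2 lower, beside 0.0911% and 0.126% of all genes tested. Their median change was 0.23, 140 were positive and 63 negative, and 16 (7.88%) were at least 2-fold up in both pairs, beside 0.701% of all genes tested. The filter on TPM could let in receptor genes through auxin libraries where they were high. These shares are thus a description and add no support. With the 21 libraries 15 were higher and 3 lower, beside 0.582% and 0.54% of all genes tested. nhr-237 stood at 27.9 and 26.5 TPM at 30 min, against 2.06 and 2.49 at 0 min. nhr-205 stood at 10.305 and 7.80 TPM at 30 min, against 0.841 and 0.230 at 0 min. Neither passed with all 27 libraries (adjusted p = 0.0772 and 0.0683, or 0.0209 and 0.0105 with 21), and both are named for their values. Of the 15, 11 lie on chromosome V (73.3%), which holds 63.5% of the receptor genes tested. Several are neighbours on a chromosome: nhr-237 and nhr-238 are 1286 bases apart on V, nhr-205 and nhr-12 400 bases apart on V, nhr-203 and nhr-202 523 bases apart on V, and nhr-287 and nhr-92 1179 bases apart on IV. How many of all receptor genes tested have a receptor neighbour this close was not counted. The layout of the 15 therefore cannot be told apart from that of the family. The spans of nhr-202 and nhr-201 overlap in the files, and reads of the shared stretch may count for either. nhr-8, a receptor known for resistance to toxins, stood at 17.8 and 10.6 TPM at 30 min, against 12.7 and 8.36 at 0 min, and ahr-1, the aryl hydrocarbon receptor, at 2.26 and 5.46, against 4.39 and 6.10. Within both pairs nhr-8 was higher and ahr-1 lower at 30 min, and neither passed (adjusted p = 0.442 and 0.29).

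**Figure D2:**
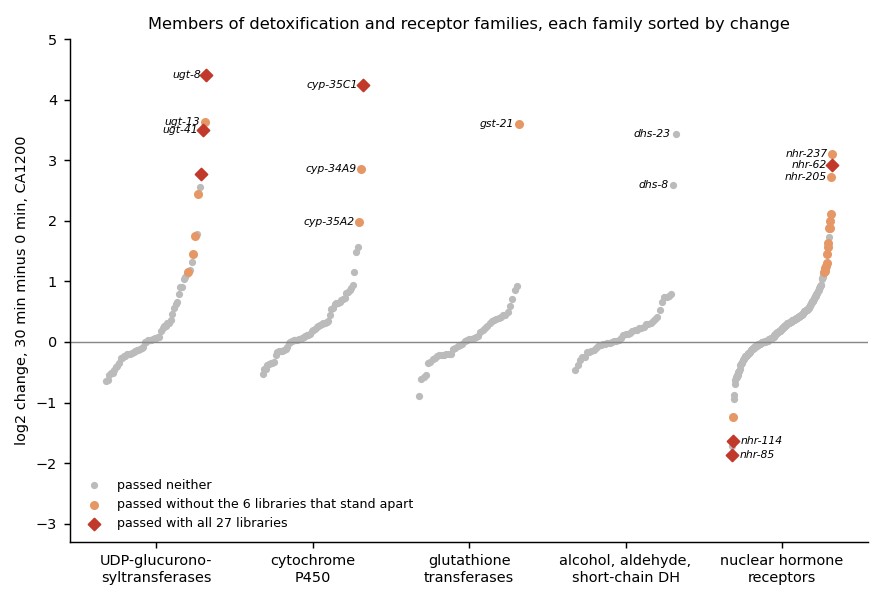
Log2 change (30 min minus 0 min) of every tested member of 5 gene families in CA1200, each family sorted from left to right. Red diamonds passed with all 27 libraries and orange points only without the 6 libraries that stand apart. Most members lie near 0, and a few lie above 2, up to 4.41 for ugt-8.

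The other genes that rose belong to metabolism or have no role stated here. tps-2 (F19H8.1, II, 14600826 to 14610476), which makes the sugar trehalose and was listed among targets of insulin and FOXO signalling, stood at 54.3 and 67.9 TPM at 30 min, against 21.1 and 31.9 at 0 min. Its change was 1.196 ± 0.19 (adjusted p = 0.0348), and the other trehalose synthase gene, tps-1, named for comparison, stood at 19.8 and 31.2 TPM at 30 min, against 13.9 and 26.6 at 0 min, and did not pass. Of 19 insulin and FOXO genes tested, tps-2 was higher and 0 were lower. nssp-76 (T07D1.3, X, 2442776 to 2443396) stood at 53.1 and 39.6 TPM at 30 min, against 19.6 and 15.1 at 0 min, a change of 1.36 ± 0.18 (adjusted p = 0.0173). The groups of tps-2 and nssp-76 did not overlap, and each pair changed by over 1.

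oac-6, of the O-acyltransferase homologues, stood at 8.42 and 4.79 TPM at 30 min, against 1.49 and 0.631 at 0 min. pho-9, of the acid phosphatases, stood at 10.1 and 2.21 TPM at 30 min, against 1.76 and 0.423 at 0 min. For pho-9 the lower 30 min library was close to the higher 0 min library, since replicate 1 exceeded replicate 2 in both groups. F39E9.1 stood at 22.4 and 28.4 TPM, against 8.22 and 6.801, F28C10.3 at 4.52 and 7.01, against 2.03 and 1.65, T11G6.3 at 10.0 and 7.87, against 3.47 and 3.601, and C09G9.1 at 69.2 and 48.5, against 30.0 and 27.1. The changes of these 6 genes lay between 1.00 (C09G9.1) and 1.87 (oac-6), with adjusted p between 0.0184 (pho-9) and 0.0434.

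On the log2(scaled TPM + 1) scale the most negative change among the 31 genes was that of rhy-1 (W07A12.7, II, 9161317 to 9163543), a membrane protein of the acyltransferase type that holds down the hypoxia factor HIF-1. It stood at 2.54 and 2.63 TPM at 30 min, against 21.2 and 17.6 at 0 min, so both auxin libraries were at about the same low level. The change was -2.501 ± 0.42 (adjusted p = 0.0392). HIF-1 raises rhy-1 itself and several other genes when oxygen is low. Of 15 hypoxia pathway genes tested, rhy-1 was lower and 0 were higher, in both fits, and the median change was 0.01, with 8 positive and 7 negative. The dehydrogenase gene dhs-8, also on that list, stood at 20.7 and 29.3 TPM at 30 min, against 1.498 and 6.24 at 0 min, a difference of 2.59 that did not pass (adjusted p = 0.154). Its groups did not overlap, and it was at least 2-fold up in both pairs. The oxygen sensor gene egl-9 stood at 12.9 and 24.8 TPM at 30 min, against 24.6 and 31.1 at 0 min (adjusted p = 0.315). nhr-57, another gene that HIF-1 raises, stood at 8.74 and 9.83 TPM at 30 min, against 11.3 and 18.1 at 0 min (adjusted p = 0.513). hif-1 itself stood at 106 and 141 TPM at 30 min, against 104.03 and 152 at 0 min, and its groups overlapped.

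The transporter genes nac-3, hmit-1.2 and spin-3 fell. nac-3 (K08E5.2, III, 10152703 to 10157829), of the sodium-coupled carboxylate transporters, stood at 6.42 and 10.26 TPM at 30 min, against 32.1 and 47.1 at 0 min. hmit-1.2 (Y51A2D.5, V, 18524731 to 18529128), an inositol transporter induced by osmotic stress, stood at 0.134 and 0.207 TPM at 30 min, against 2.79 and 4.92 at 0 min. spin-3 (F09A5.1, X, 13130192 to 13134138), of the Spinster family of lysosomal transporters, stood at 1.83 and 1.02 TPM at 30 min, against 9.56 and 7.70 at 0 min. In each of the 3 the 30 min libraries lay well below the 0 min libraries. The ratio of the means was 0.0442 for hmit-1.2, below the 0.133 of rhy-1, and the changes were -2.13 ± 0.37, -2.02 ± 0.33 and -2.002 ± 0.35, with adjusted p of 0.0434, 0.0392 and 0.0434. Of 14 osmotic stress genes tested hmit-1.2 was lower and 0 were higher. gpdh-1, the glycerol-making enzyme gene that marks osmotic stress, stood at 2.31 and 0.485 TPM at 30 min, against 2.26 and 3.599 at 0 min, and its groups overlapped.

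Other genes that fell act in lipid metabolism, neurons and development. atgl-1 (C05D11.7, III, 6415718 to 6421659), the triglyceride lipase of fat stores, stood at 6.23 and 9.74 TPM at 30 min, against 12.59 and 27.5 at 0 min, a change of -1.16 ± 0.21 (adjusted p = 0.0486, or 0.0673 with 21 libraries). mec-9 (C50H2.3, V, 9907607 to 9915063), an extracellular protein of touch neurons, stood at 3.58 and 5.05 TPM at 30 min, against 12.59 and 12.5 at 0 min. ndnf-1 (Y54G2A.29, IV, 3023392 to 3028940), a relative of a neurotrophic factor, stood at 1.69 and 2.499 TPM at 30 min, against 4.41 and 10.1 at 0 min. The 2 changes were -1.36 ± 0.20 and -1.33 ± 0.18 (adjusted p = 0.0204 and 0.0184). The GABA receptor-like subunit gene gab-1 stood at 1.38 and 4.47 TPM at 30 min, against 5.36 and 9.43 at 0 min (adjusted p = 0.0392). The 6 neuron markers summed to 845 and 934 TPM at 30 min, against 950.3 and 956 at 0 min. Of these markers 5 were negative, with a median change of -0.39 in pair 1 and 0.00 in pair 2, and unc-104 stood at 9.88 and 33.95 TPM at 30 min, against 25.15 and 35.4 at 0 min. The part of neuronal RNA in the values of mec-9, ndnf-1 and gab-1 was not tested.

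The remaining genes that fell include a transcription factor, a globin and an arrestin-like gene. egl-43, a zinc-finger factor of gonad and neuron development, stood at 8.61 and 17.1 TPM at 30 min, against 19.5 and 29.4 at 0 min. The globin gene glb-24 stood at 8.67 and 10.29 TPM at 30 min, against 29.2 and 23.6 at 0 min, and the arrestin-domain gene arrd-17 at 14.03 and 28.7, against 31.1 and 47.4. egl-43 and arrd-17 had the smallest falls, -0.92 and -0.90, and their higher 30 min library was near their lower 0 min library. F26A3.4 stood at 37.6 and 38.2 TPM, against 116 and 149, C54G6.3 at 3.53 and 3.73, against 10.29 and 18.1, and T10B10.4 at 6.01 and 7.55, against 17.4 and 21.5. F20G2.6 stood at 7.83 and 9.77 TPM, against 22.4 and 21.2, and W09H1.1 at 1.23 and 1.86, against 3.001 and 4.67. These 5 genes are known here by their sequence names alone. Of the 31 genes, egl-43, arrd-17 and W09H1.1 fell outside the naming rule and are given so that the account is complete.

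The 131 genes that passed only with the 21 libraries include some with larger changes than most of the 31, and those named here were chosen after their values were seen. R107.5 stood at 29.6 and 15.9 TPM at 30 min, against 639.6 and 549 at 0 min, a change of -4.71 (adjusted p = 0.113 with all 27 libraries and 0.00937 with 21). R09E12.9 stood at 585 and 252 TPM at 30 min, against 15.4 and 14.5 at 0 min, a change of 4.59 (adjusted p = 0.0585 with all 27 libraries and 0.0209 with 21). The lipase-like gene lips-10 stood at 198 and 162 TPM at 30 min, against 45.8 and 45.2 at 0 min (adjusted p = 0.112 and 0.0059). The co-chaperone gene dnj-13 stood at 80.4 and 42.2 TPM at 30 min, against 228 and 414 at 0 min (adjusted p = 0.28 and 0.0379). nurf-1, a subunit of a chromatin remodelling complex, stood at 109 and 92.7 TPM at 30 min, against 411 and 541 at 0 min (adjusted p = 0.154 and 0.0059). In each of these 5 genes the groups did not overlap. They were picked from genes that passed on these same libraries, so this adds no support. The share of all genes tested without overlap was not counted. pgph-1, pgph-2 and pgph-3 fell together in that fit, but they are close copies whose reads may be split between them.

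Other stress pathways had few or 0 genes that passed, and their pairs often went in opposite directions. The heat shock, metal response and fasting genes named with values were chosen after their values were seen. Of 24 inducible heat shock and chaperone genes 0 passed with all 27 libraries, and with the 21 libraries 0 were higher and 1 lower. Their median change was 0.92 in pair 1 and -0.31 in pair 2. hsp-16.2, a small heat shock gene, stood at 1841 and 570 TPM at 30 min, against 371 and 633 at 0 min, so replicate 1 at 30 min was the highest and replicate 2 lay below its 0 min partner. hsp-70 stood at 345 and 112 TPM at 30 min, against 49.1 and 103 at 0 min. The heat shock genes were thus expressed in all 4 libraries, with 0 min levels that differed between replicates, and the hsp-16 genes are close copies in pairs. F44E5.4 and F44E5.5 are near-identical relatives of hsp-70 whose reads may be split. F44E5.4 stood at 771 and 309 TPM at 30 min, against 1372 and 2055 at 0 min, and F44E5.5 at 817 and 329, against 1444 and 2157 (adjusted p = 0.53 and 0.533).

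Of 20 metal response genes 0 passed with all 27 libraries. The metallothionein gene mtl-1, which binds metal ions, stood at 827 and 112 TPM at 30 min, against 116 and 15.1 at 0 min. It was higher at 30 min within each pair, by 2.82 in pair 1 and 2.81 in pair 2, but its 30 min replicate 2 lay below its 0 min replicate 1, so the groups overlapped. The adjusted p was 0.0772 with all 27 libraries and 0.0134 with 21. Of 20 oxidative stress genes, 21 genes of the unfolded protein response of the endoplasmic reticulum, 9 of mitochondria, 39 of the intracellular pathogen response and 57 of innate immunity, 0 passed in either fit. Their medians were 0.14, 0.14, -0.16, 0.06 and 0.25. Of 21 genes on the list of fasting and lysosomal lipase genes, which holds neither atgl-1 nor lips-10, 0 passed in either fit. acs-2, the acyl-CoA synthetase gene that marks fasting, stood at 394 and 278 TPM at 30 min, against 65.1 and 27.3 at 0 min, a change of 2.94 whose groups did not overlap (adjusted p = 0.184 with all 27 libraries and 0.0544 with 21).

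Growth and molting genes also differed in size or sign between pairs. The 75 ribosomal protein genes had a median change of 0.55 in pair 1 and -0.52 in pair 2. Such medians are of scaled TPM, with library factors of 0.6507 and 1.105 at 30 min, against 0.8648 and 0.8837 at 0 min. Before scaling, ribosomal protein genes took 36.95% and 33.7% of TPM at 30 min, against 35.64% and 38.49% at 0 min. The 38 oxidative phosphorylation genes had 0.63 in pair 1 and -0.34 in pair 2. The 30 molting protease and apical matrix genes had -0.60 in pair 1 and -0.02 in pair 2, with 25 of 30 negative. The 66 histone genes had 0.58 in pair 1 and 0.18 in pair 2, with 65 of 66 positive, and many are near-identical copies whose reads may be split. In these 4 groups 0 genes passed with all 27 libraries. With the 21 libraries 1 histone gene was higher, beside 0.582% of all genes tested. At least 2-fold up in both pairs were 3 histone genes (4.55%), beside 0.701% of all genes tested. Of the 36 gene groups, 17 had medians of opposite sign in the 2 pairs. Over all genes tested, the changes in the 2 pairs had a Pearson correlation of 0.238 across genes, which are not independent replicates, and 45.04% of genes had opposite signs. The 6 body wall muscle markers summed to 5062 and 4496 TPM at 30 min, against 2605 and 5238 at 0 min, and the 6 hypodermis and seam markers to 1168 and 1026, against 1464 and 1214. The part of scaling, tissue or larval phase in the split was not tested.

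**Figure D3:**
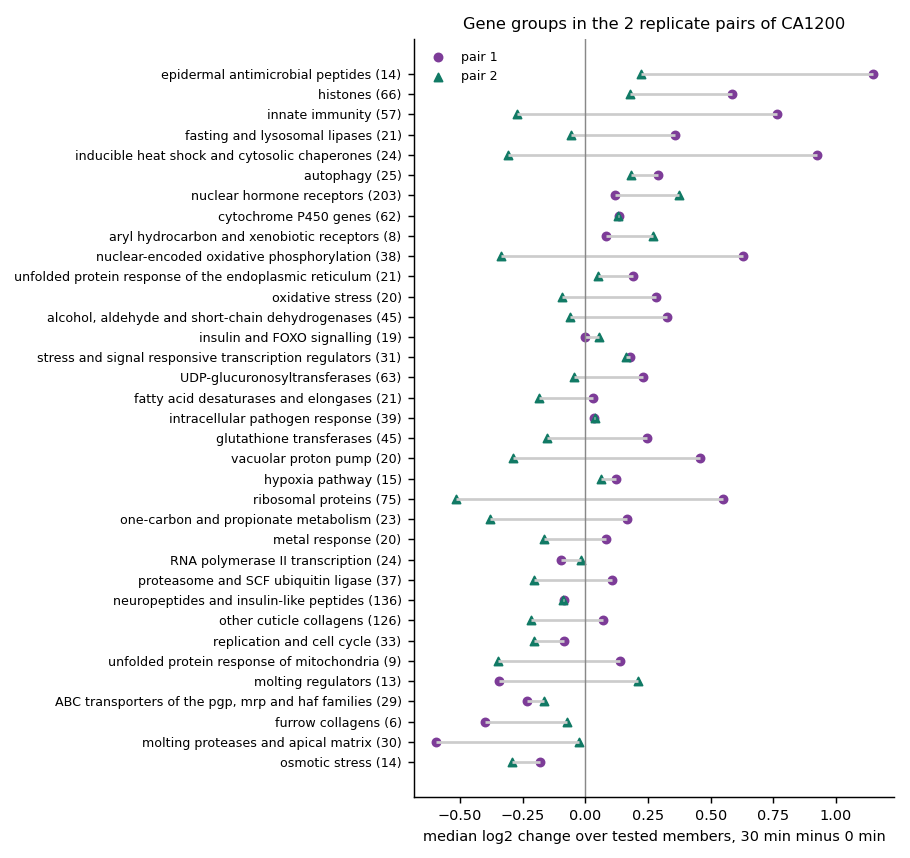
Median log2 change (30 min minus 0 min, scaled TPM) of 35 gene groups with at least 6 tested members, in replicate pair 1 (circles) and pair 2 (triangles) of CA1200. The number tested is in brackets. Ribosomal protein genes lie at 0.55 and -0.52 and heat shock and chaperone genes at 0.92 and -0.31, whereas nuclear hormone receptors lie above 0 in both pairs.

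The transcripts of the proteins that carry the degron in the other strains were measured as a check. top-1 stood at 28.4 and 37.8 TPM at 30 min, against 33.4 and 42.8 at 0 min. top-2 stood at 7.53 and 13.04 TPM at 30 min, against 10.8 and 16.9 at 0 min, and dpy-27 at 8.93 and 17.995, against 10.2 and 16.8. The groups overlapped for each, and the adjusted p were 0.676, 0.349 and 0.974. Gene length and chromosome were compared as medians, with no test. The 1428 longest genes (the longest 10%, at least 7742 bp) differed from the others by -0.17, but by -0.38 in pair 1 and 0.02 in pair 2. Without 30 min replicate 1 the difference was 0.13. That value is not paired, since it sets 30 min replicate 2 against the mean of both 0 min libraries. X-linked genes (2227) differed from autosomal genes (12044) by -0.02, with -0.05 in pair 1 and 0.03 in pair 2. Of the 31 genes, 4 are X-linked and 2 are among the longest 10%.

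The TOP-1 and TOP-2 strains give the same exposure in worms that share no library with CA1200. In the TOP-1 strain all 13 higher and all 18 lower genes had the same sign as in CA1200 in both pairs, and 8 and 18 of them passed. In that strain 4.89% of all genes passed, 1.74% higher and 3.15% lower. By the sign of the fitted change alone, a looser measure than both pairs, 70.8% of all genes had the same sign as in CA1200. The share of all genes by both pairs was not counted. The passes share each gene's estimate of spread, since both strains are in 1 fit. ugt-8 stood at 23.04 and 33.2 TPM at 30 min, against 4.38 and 10.5 at 0 min in the TOP-1 strain. rhy-1 stood at 2.09 and 1.02 TPM at 30 min, against 34.1 and 31.3 at 0 min there. The fall of rhy-1 was -3.75 ± 0.42 in the TOP-1 strain (adjusted p = 0.00218) and -2.501 ± 0.42 in CA1200. With the 21 libraries, 69 of the 83 higher and 55 of the 77 lower CA1200 genes also passed in the same direction in the TOP-1 strain, beside 2.94% and 3.92% of all genes.

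In the TOP-2 strain 13 of 13 higher genes had the same sign as in CA1200 in both pairs, and 13 of 18 lower genes did. Of these 1 higher gene, nssp-76, and 0 lower genes passed, beside 0.021% of all genes in either direction, 0.021% higher and 0.0% lower. Replicate 1 of that strain is among the 6 libraries that stand apart, and in replicate 2 alone 13 of 13 and 15 of 18 had the same sign. The level of cyp-35C1 over both replicates of that strain was 14.7 and 54.9 TPM at 30 min, against 2.13 and 1.88 at 0 min. rhy-1 stood at 5.52 and 3.89 TPM at 30 min, against 8.02 and 19.1 at 0 min. By the sign of the fitted change, 13 of 13 higher and 14 of 18 lower genes went as in CA1200, beside 61.9% of all genes. The lower genes that did not were nac-3, ndnf-1, F20G2.6 and C54G6.3, with changes of 0.004, 0.06, 0.21 and 0.98 in the TOP-2 strain. nac-3 stood at 9.66 and 19.4 TPM at 30 min there, against 8.48 and 21.9 at 0 min. The change of hmit-1.2 there was -0.03, so neither of these transporter genes showed a clear fall in that strain. The share of all genes by both pairs, or in replicate 2 alone, was not counted.

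The differences themselves were tested over all genes. The CA1200 change minus the TOP-1 change passed for 0 genes (0.0%), with 653 at an unadjusted p under 0.05 (4.58%) and a smallest adjusted p of 0.659. The CA1200 change minus the TOP-2 change passed for 0 genes (0.0%), with 741 at an unadjusted p under 0.05 (5.19%) and a smallest adjusted p of 0.509. For ugt-8 the difference between CA1200 and the TOP-1 strain was 2.55 ± 1.01, and for rhy-1 it was 1.25 ± 0.59. The 31 genes were taken for their change in CA1200, so a smaller change elsewhere, seen for 11 of 13 higher and 13 of 18 lower genes in the TOP-1 strain and for 13 of 13 and 18 of 18 in the TOP-2 strain, has no test. Leaving out 0 min replicate 2 of the TOP-2 strain brought 34 genes past the threshold in the second difference.

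**Figure D4:**
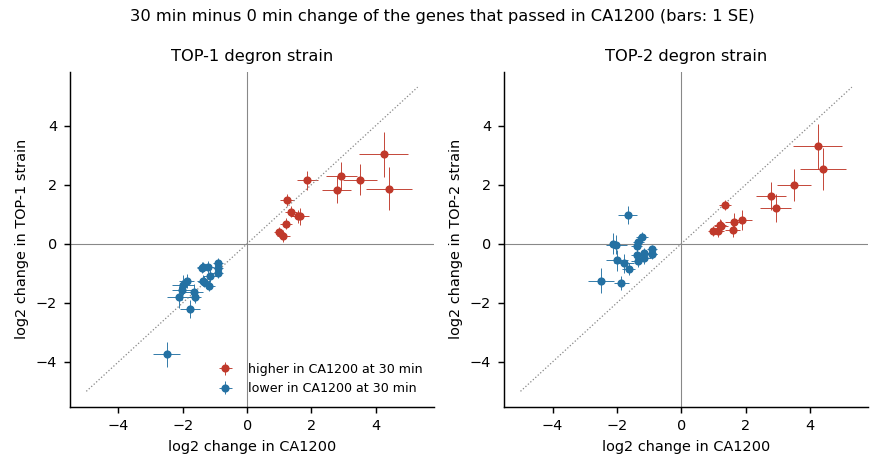
Log2 change (30 min minus 0 min, bars 1 SE) of the 31 genes in the TOP-1 strain (left) and the TOP-2 strain (right) against the change in CA1200. Red genes were higher and blue genes lower in CA1200, the dotted line marks equal change, and all 31 points of the left panel lie on the same side of 0 on both axes.

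Levels at the later times are given as values only, since every time point is set against the same 0 min libraries. At 60 min (1 library) all 13 higher genes lay above both 0 min libraries and all 18 lower genes below both. At 120 min 11 of 13 and 14 of 18 did so in both libraries. How many of all genes tested did so at 60 or 120 min was not counted. These genes were picked for their difference from the same 0 min libraries, so the counts alone cannot show how far the changes lasted. cyp-35C1 stood at 97.6 and 37.03 TPM at 30 min, 145 at 60 min and 126 and 54.6 at 120 min, and ugt-8 at 78.9 and 53.3, then 59.1, then 46.1 and 44.2. Both detoxifying genes thus lay above their 0 min level at every later time. tps-2 stood at 42.5 TPM at 60 min and 29.9 and 33.1 at 120 min, and nssp-76 at 49.98, then 20.4 and 14.97, both near their 0 min levels at 120 min. rhy-1 stood at 5.63 TPM at 60 min and 13.6 and 7.53 at 120 min, between its 30 min and 0 min levels. ndnf-1 stood at 2.68 TPM at 60 min, and its 5.72 and 8.11 TPM at 120 min lay within its 0 min range, whereas nac-3 stayed low, at 5.93 TPM at 60 min and 7.25 and 7.45 at 120 min.

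**Figure D5:**
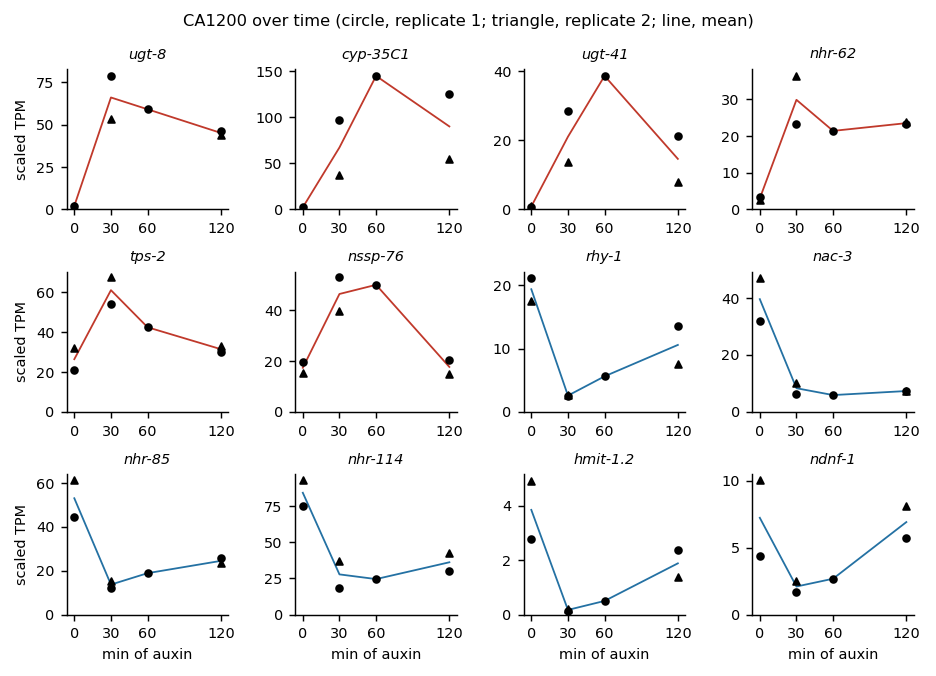
Scaled TPM of 12 of the 31 genes in CA1200 at 0, 30, 60 and 120 min of auxin (circles replicate 1, triangles replicate 2, line the mean; 60 min has 1 library). ugt-8, cyp-35C1, ugt-41 and nhr-62 stay above their 0 min level through 120 min, tps-2 and nssp-76 lie near it at 120 min, and rhy-1 is lowest at 30 min.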

How the data were processed

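Poly(A) RNA of whole worms was sequenced with strand kept, per the labels' protocols; 25 libraries are labelled L2/L3 and 2, of AM01, mixed larvae. The deposited tables, per the file headers, give FPKM and TPM per gene from the authors; TPM was used, and FPKM only to estimate fragments per library. Tools listed, without roles, per the submitters' processing notes were Cufflinks 2.2.1, HISAT2 2.2.1, DESeq2 1.30.0, CASAVA 1.8 and HTSeq 0.13.5. No genome build was stated in what was used here, and coordinates are as in the files. The deposited comparison tables were not used here.

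TPM were scaled by median ratios over 12832 genes. Genes with TPM of at least 1 in at least 2 of 27 libraries were kept (14271). Values were taken as log2(scaled TPM + 1) and fitted with limma 3.58.1 (R 4.3.3, trended variance) over all 27 libraries, with strain and replicate number as a block (9 residual degrees of freedom; 12 without it). P-values were two-sided and adjusted by Benjamini-Hochberg over all genes, and the code was tested on simulated data. The block follows the labels' replicate numbers: within CA1200, deviations of same-numbered libraries correlated at 0.534 (0 and 30 min), 0.378 (0 and 120 min) and 0.698 (30 and 120 min). Between times they correlated at 0.628 to 0.904 in the TOP-1 strain and 0.785 to 0.887 in the TOP-2 strain. CA1200 was thus the less closely paired at 0 and 30 min. Whether the pooled spread is too small for CA1200 was not tested. P-values measure the spread between these samples, and with 2 libraries a group that spread is estimated mainly from the other groups. Alternatives changed the block, scaling, pseudocount, filter and libraries. Promoter sequence was not analysed here. Figures were drawn with matplotlib 3.10.9.

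The comparison, gene groups and marker lists were chosen with earlier results of these data known. Genes named are the 14 highest and 14 lowest that passed, with the same sign in both pairs and a mean of at least 5 scaled TPM in the higher group, up to 4 that passed per gene group, any member of groups under 16 genes, the degron targets and rhy-1; others are marked as chosen after their values were seen.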

Additional observations from a re-analysis of the deposited data

How the results depend on the processing

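The count of genes that passed moved with the pairing by replicate number: 31 with the block and 0 with no replicate block, where 424 genes had an unadjusted p under 0.05 and the smallest adjusted p among the 31 was 0.119. The cause was not tested. With the CA1200 libraries alone 0 genes passed (1648 at an unadjusted p under 0.05), and without the 6 libraries that stand apart 160 passed. A pseudocount of 5 gave 85 genes, a filter at TPM of at least 5 gave 56 and no filter on low values gave 11. Leaving out 1 library at a time gave 0 to 14 genes, of which 0 to 3 were among the 31; such fits assume that the lone library varies like the others. TPM as deposited, upper quartile scaling and a pseudocount of 0.1 gave 27, 23 and 27.

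The difference from the TOP-1 strain passed for 0 to 1 genes when 1 library was left out, and that from the TOP-2 strain for 0 to 34, or 1 with no filter. Genes at least 2-fold higher or lower in both pairs, alternatives added after seeing the data, numbered 100 and 67, or 229 and 187 with a pseudocount of 0.1 and 52 and 26 with a pseudocount of 5. The long-gene difference ranged from -0.47 to 0.13 when 1 library was left out, as differences of group means not paired by replicate. For the 31 genes, 433 values under alternatives held 0 reversals of direction, 197 past the threshold and 236 no longer past it. The difference from the TOP-2 strain was not run without the 6 libraries, which would leave 1 pair. Fragment counts per gene were not used, so no counting interval is given.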
